A study of Mus musculus with 24 samples.

Results

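Mammary glands of female SPRET/EiJ mice were compared 4 weeks after whole-body low-dose ionizing radiation (LDIR, a single dose of 10 cGy of X-rays) or sham exposure. The comparison rests on 6 of the 24 one-colour arrays of the series, 3 LDIR and 3 sham, chosen by strain, time and exposure, and all on 1 slide. Mice of both groups were 8 to 9 weeks old at exposure and differed by no other labelled treatment, and no transgene is named. The other 18 arrays are of BALB/c mice at 3 times, and the 6 BALB/c arrays at 4 weeks serve below as the comparison strain. Each array carried 39430 coding RNA probes and 16251 long noncoding RNA (lncRNA) probes of 60 bases. Labels and methods do not say whether 1 array holds the RNA of 1 mouse, so p-values measure the spread between these samples. Probes were designed on the reference mouse genome, and the effect of SPRET/EiJ sequence differences on hybridization was not analysed here.

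The SPRET/EiJ strain was inbred from wild Mus spretus, and the study took it as more resistant than BALB/c to mammary cancer after radiation. The mammary gland is a tree of luminal and myoepithelial cells in a pad of adipocytes, with fibroblasts, vessels, nerves and immune cells, and a lymph node lies within the inguinal gland of the mouse. In irradiated cells, double-strand breaks are sensed by the ATM pathway, p53 switches on genes of cell cycle arrest and death, and later tissue responses are known to involve cytokines, TGF-beta and the extracellular matrix. Long noncoding RNAs are transcripts without a long reading frame, and some act on transcription or chromatin near their own locus. Levels below are log2 signals minus the log2 75th percentile of the same array, so a level of 0 is the signal of the probe at that percentile, and levels of different probes are not read as amounts of RNA, a brighter probe being only the one with the higher signal.

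Of the 3 LDIR arrays 2 stood apart, 1 by its background and 1 by its cell markers. The markers of the labelled tissue were present, with all 18 luminal, all 10 basal and all 16 white adipocyte genes well above background on every array. LDIR replicate C had a raised background. Its negative control probes had a net signal of 26.3 intensity units against 14.6 to 15.8 on the other 5 arrays, and 57.1% of its probes were well above background against 64.6% to 70.4%. Between the groups the share of probes above background differed by -1.05 percentage points (exact permutation test, two-sided p = 1, where 3 against 3 arrays cannot go below 0.1). The 13766 probes above background on no array had a median level of -6.54 on LDIR replicate C and of -7.9 to -7.49 on the other 5.

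LDIR replicate A carried far more lymphocyte RNA than any other SPRET/EiJ array. The summed level of 13 T lymphocyte genes was 7.76 on LDIR replicate A and 4.09 to 4.4 on the other 5, a 10.3-fold gap to the next array. For 9 B lymphocyte genes the summed levels were 6.75 and 4.36 to 4.77, and for 11 MHC class II genes, which present antigen on B cells, dendritic cells and macrophages, 9.23 and 6.05 to 6.46. LDIR replicate A was the highest of the 6 arrays for 12 of the 13 T lymphocyte genes, for 8 of the 9 B lymphocyte genes and for all 11 MHC class II genes. Fat genes ran the other way. All 16 white adipocyte genes and all 12 fatty acid synthesis genes were lowest on LDIR replicate A, with summed levels of 10.93 against 12.11 to 12.37 and of 9.63 against 11.01 to 11.34. Brown and beige fat genes summed to 3.45 on this array and to 6.08 to 6.49 on the others.

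Single genes showed the same split. Cd3d, a chain of the T cell receptor complex, had a level of 4.45 on LDIR replicate A and of -2.98 to -2.2 on the other arrays. Lck, the kinase that starts T cell receptor signalling, stood at 5.77 against -0.48 to -0.01. Ms4a1, which encodes the B cell antigen CD20, stood at 3.9 against -6.5 to -2.89, and Cd79b, a chain of the B cell receptor, at 5.56 against -4.49 to -1.57. These genes, picked after their values were seen, are high on 1 of 3 LDIR arrays, and none of the 4 passed the thresholds below. The chemokine receptors Ccr7 and Ccr6, which guide lymphocytes to lymphoid tissue, stood at 4.78 and 4.05 on LDIR replicate A against at most -1.97 and -3.18 elsewhere. In the BALB/c arrays, 2 of 18 had T lymphocyte sums within 1 log2 unit of LDIR replicate A, over a range of 3.53 to 7.84 with a median of 4.1. More cells of a type and more RNA per cell cannot be told apart in these bulk samples.

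**Figure D1:**
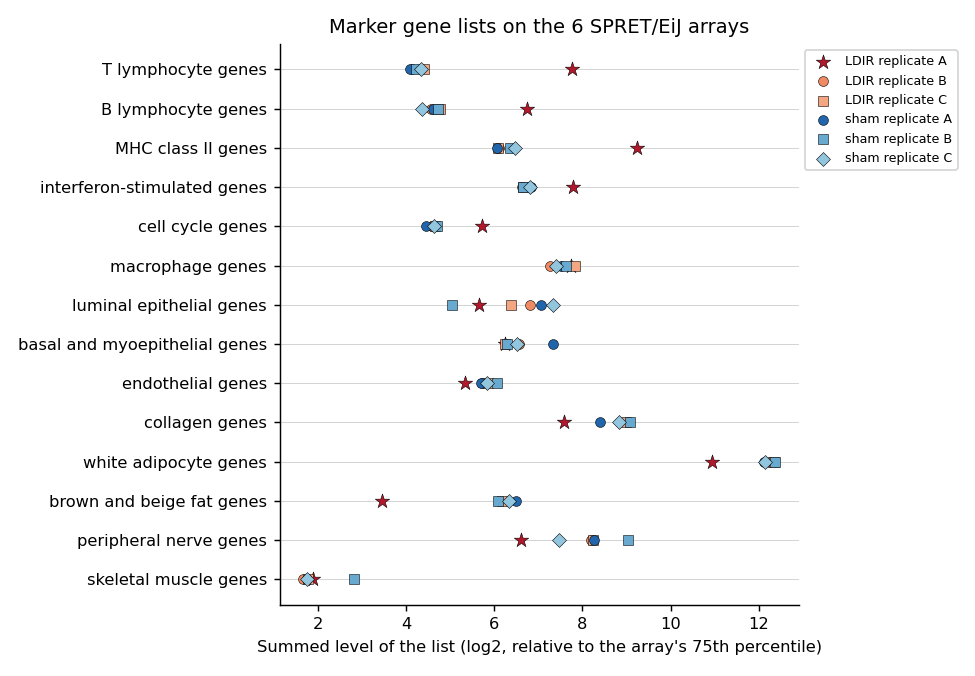
Summed level of 14 marker gene lists (rows) on each of the 6 SPRET/EiJ arrays, in log2 units relative to the 75th percentile of the array. LDIR replicate A (star) lies far to the right for T lymphocyte, B lymphocyte and MHC class II genes and to the left for collagen, white adipocyte and brown fat genes, while the other 5 arrays lie close together for most lists.

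A pair of lncRNA probes of 1 locus followed the lymphocyte genes on LDIR replicate A, and their probe sequences are shown because they have no gene symbol. They were picked after their values were seen. Both lie on the minus strand of chromosome 1 in build mm9, in chr1:88187397-88187862_R, the first at chr1:88187466-88187525 and the second at chr1:88187583-88187642.
chr1:88187397-88187862_R, first probe: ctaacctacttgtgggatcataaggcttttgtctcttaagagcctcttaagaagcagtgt
chr1:88187397-88187862_R, second probe: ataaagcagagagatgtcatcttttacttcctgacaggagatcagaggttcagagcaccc
The first had a level of 1.72 on LDIR replicate A and of -6.84 to -5.53 on the other arrays, and the second 0.44 against -7.64 to -6.4. LDIR replicate A had 1322 probes over 4-fold above all other arrays, against 40 to 95 for the other 5, and correlated with them at r = 0.925 to 0.943 over probes above background on all 6, where the other 10 pairs reached 0.978 to 0.994. Sham replicate B was highest for skeletal muscle genes (2.81) and lowest for luminal genes (5.04), and sham replicate A highest for milk protein genes (7.26). Results below are therefore also given without LDIR replicate A or C where leaving either out ended a call, and list medians are plotted with and without LDIR replicate A.

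The question of this comparison is which RNAs differ 4 weeks after LDIR in the resistant strain. With the thresholds of the study's methods, an unadjusted p under 0.05 and a change over 1.5-fold (limma in place of the plain test), 369 lncRNA probes were higher and 135 lower, and 523 coding RNA probes were higher and 198 lower. As shares these are 2.27% and 0.831% of lncRNA probes and 1.33% and 0.502% of coding RNA probes. Without LDIR replicate A, 843 lncRNA and 1257 coding RNA probes passed, and without LDIR replicate B, 887 and 1708, against 504 and 721 with all arrays. After Benjamini-Hochberg adjustment over all 55681 probes no probe passed (0.0% called, smallest adjusted p = 0.972 in limma). An unadjusted p under 0.05 was reached by 1231 probes, or 2.21%, below the share of 0.05 expected on average with no difference. The names below are thus descriptions of where the groups parted, each at its unadjusted p, and not calls that hold over the array.

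Few of the probes past the thresholds were measured on every array. Of 1225 in all, 540 were well above background on no array, 460 of them higher and 80 lower after LDIR. Only 121 of the 31233 probes well above background on all 6 arrays passed (0.387%), 80 higher and 41 lower. Among these 121, LDIR replicate A was the LDIR array farthest from the sham mean for 96, 42 also passed without LDIR replicate A, 89 without LDIR replicate C and 35 without each in turn. Of the 51 RNAs named below as past the thresholds, 13 stayed past them under normexp background correction. Normexp was run with an offset of 50 added to each signal, which shrinks log2 changes of dim probes. A call lost under normexp at a dim probe therefore does not show that the change is absent. Of probes well above background on all 5 remaining arrays, 118 were higher and 29 lower without LDIR replicate A, and 231 were higher and 226 lower without LDIR replicate C. The split between directions depended on the scaling. It was 73.2% higher for lncRNA probes, but quantile normalization gave 168 higher and 246 lower lncRNA probes and 269 higher and 383 lower coding RNA probes. With background correction by normexp, 3 lncRNA probes were higher and 2 lower, and 73 coding RNA probes were higher and 60 lower.

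**Figure D2:**
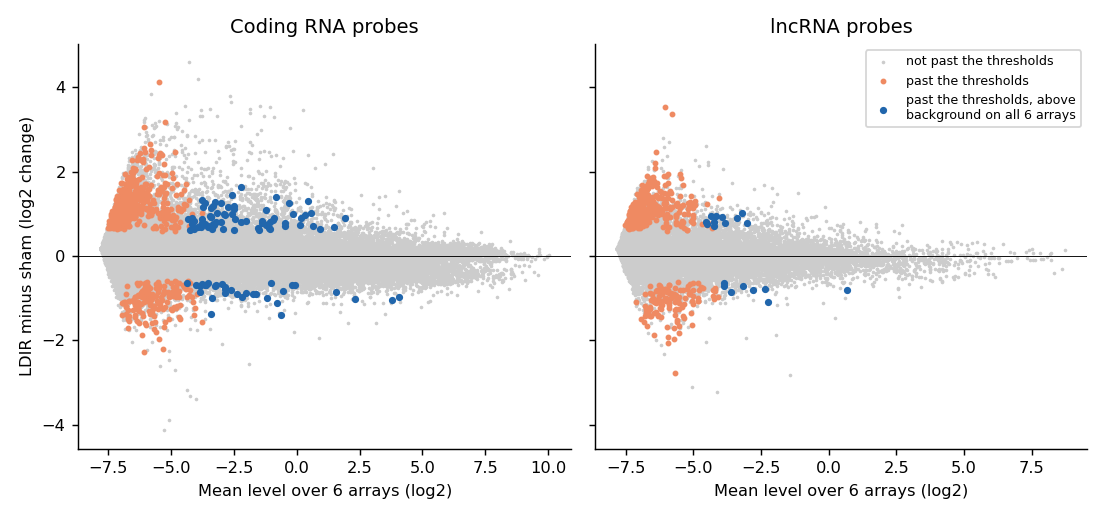
Log2 change, LDIR minus sham, against the mean level over the 6 arrays for each coding RNA probe (left) and lncRNA probe (right). Grey points are not past the thresholds, orange points passed them, and blue points passed them and were well above background on all 6 arrays. Most orange points lie at the dim end, and 121 blue points lie across the rest of the range.

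Among coding RNAs measured on all 6 arrays with groups that did not overlap, Uhrf1 had the highest change. Uhrf1 maintains DNA methylation after replication. Its levels were 1.16, -0.67 and -0.93 on LDIR replicates A, B and C and -1.74, -1.6 and -1.28 on the sham arrays. The log2 change was 1.39 ± 0.55 (SE), a 2.63-fold difference with unadjusted p = 0.0399 in limma. All 3 LDIR arrays were above all sham arrays, and the change was 0.74 without LDIR replicate A and still past the thresholds. It passed with 3 of the 6 arrays left out in turn. A second, dimmer Uhrf1 probe had a log2 change of 0.68 ± 0.71 and was above background on 1 array.

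The RIKEN cDNA 2610020P09Rik had the lowest p of the 8 higher coding RNAs named from those measured on all 6 arrays. Its levels were 0.81, 0.23 and -0.13 after LDIR and -0.64, -1.16 and -1.03 after sham, a log2 change of 1.25 ± 0.32 with unadjusted p = 0.00635 in limma. The LDIR arrays were all above 0 or just below it and the sham arrays all below -0.6. The change was 0.99 without LDIR replicate A, and it passed with each of the 6 arrays left out. Gltscr1, a subunit of a SWI/SNF chromatin remodelling complex, had levels of -2.59, -3.47 and -2.99 after LDIR and -3.66, -4.65 and -4.52 after sham. Its log2 change of 1.26 ± 0.37 also passed with each array left out, but was 0.46 and not past the thresholds under normexp.

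LDIR replicate A was the highest array for the other higher coding RNAs named, and Rbm3 and Cyth1 did not pass without it. With each of the 6 arrays left out in turn, Rbm3 and BQ939345 passed 2 times, Cyth1 and Pla2g5 3 times and Pira2 4 times. Rbm3, a cold-induced RNA-binding protein, had levels of -1.73, -2.78 and -3.41 after LDIR and -3.53, -4.55 and -3.65 after sham. Its change of 1.27 ± 0.5 did not pass without LDIR replicate A, and both brighter Rbm3 probes had changes of 0.17 and 0.18. Cyth1, an exchange factor for ARF proteins found in leukocytes, had a change of 1.27 ± 0.49 that did not pass without this array either. A brighter Cyth1 probe had a change of 0.71 ± 0.48, and 0.16 without LDIR replicate A, and did not pass. Pira2, an activating receptor of myeloid and B cells, had levels of -1.91, -3.23 and -3.05 against -3.53, -4.38 and -3.86, a change of 1.19 ± 0.43 that passed without the array (0.78). Its second probe also passed, with a change of 0.97 ± 0.4, but not without LDIR replicate A (0.68). Pla2g5, a secreted phospholipase, had a change of 1.19 ± 0.42, and 0.78 without LDIR replicate A. The expressed sequence BQ939345 had a change of 1.33 ± 0.56, and 0.68 and past the thresholds without it. Pla2g5 (1.22) and BQ939345 (1.56) did not pass without LDIR replicate C.

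Of the 8 lower genes named, Aplnr and Klra8 were those whose call did not hang on 1 array. Aplnr is the receptor for apelin on endothelial cells. Its levels were -2, -1.5 and -1.54 after LDIR and -0.64, -0.45 and -0.95 after sham. Each LDIR array was at least 0.5 log2 units below every sham array, with a log2 change of -1 ± 0.27 and unadjusted p = 0.00815 in limma. The call held with each array left out and under normexp. Klra8 encodes the natural killer cell receptor Ly49H. Its levels were -3.79, -3.75 and -4.07 after LDIR and -2.88, -2.9 and -2.89 after sham, a log2 change of -0.98 ± 0.23, or -0.4 and not past the thresholds under normexp. A second Klra8 probe also passed, with a change of -1.56 ± 0.25, and another was above background on no array. The Klra genes are a family of close copies, so the source of this signal is uncertain.

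The other 6 lower coding RNAs named did not pass without LDIR replicate A, but their calls were lost without other arrays too. With each of the 6 arrays left out in turn, Myoc, Pi16 and Cxcl14 passed 1 time and Plau, Sox7 and Lgsn 2 times. Myoc, which encodes the secreted protein myocilin, had levels of -2.15, -1.63 and -0.21 after LDIR and 0.11, -0.04 and 0.11 after sham, a change of -1.39 ± 0.49. Pi16, a marker of adventitial fibroblasts, had levels of 2.79, 3.74 and 4.2 against 4.76, 4.66 and 4.24. Its change was -0.98 ± 0.4. Plau, the urokinase plasminogen activator, stood at 1.23, 2.06 and 2.18 against 3.44, 2.4 and 2.66, a change of -1.01 ± 0.39. Cxcl14, a chemokine of epithelium and stroma, stood at 2.41, 4.05 and 3.38 against 4.16, 4.51 and 4.28, a change of -1.04 ± 0.43. LDIR replicate A was the lowest array for each of the 4. Without it their changes were -0.98, -0.59, -0.72 and -0.6, and none passed. Sox7, an endothelial transcription factor, and Lgsn, lengsin of the lens, had changes of -1.12 ± 0.45 and -1.37 ± 0.51, and neither passed without LDIR replicate A. Lgsn, Sox7 and Cxcl14 did not pass without LDIR replicate C either, with changes of -1.32, -1.29 and -1.09. Of the 16 coding RNAs named here, 8 passed without LDIR replicate A.

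**Figure D3:**
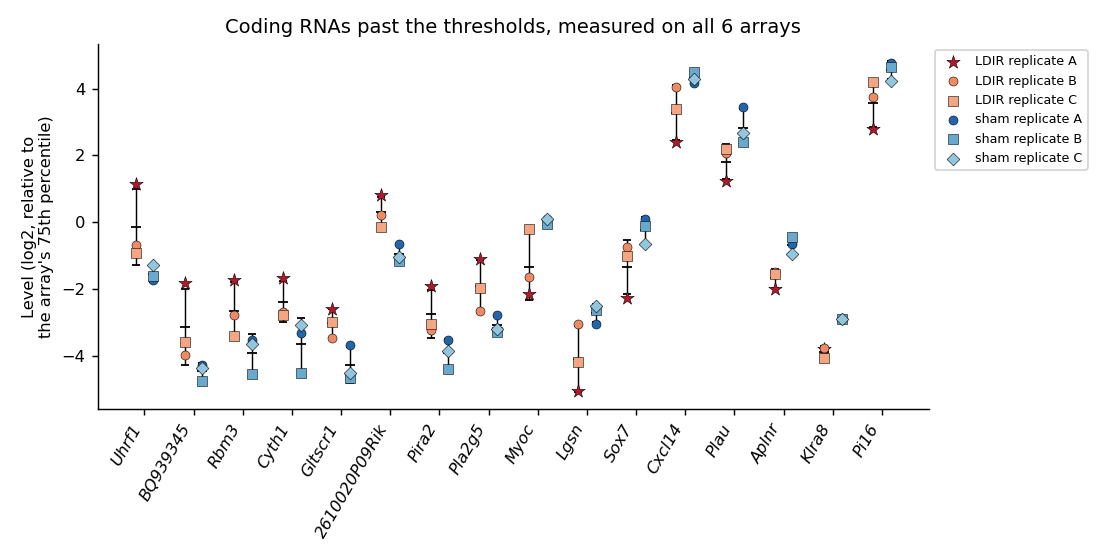
Level on each array (log2, relative to the 75th percentile of the array) of the 16 coding RNAs past the thresholds, measured on all 6 arrays and without overlap between groups. Points are arrays, and bars show mean ± SD over 3 arrays. LDIR replicate A (star) is the extreme LDIR array for most of the 16, while the 3 LDIR arrays lie together for Aplnr and Klra8.

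For RNAs above background in 1 group alone, a bound on the fold is given, taking as the dim group's level, on each array, the probe's own signal or, if higher, that of the dimmest probe well above background. The brighter group's level is the mean of its 3 arrays, and bounds without LDIR replicate C were not computed. The dimmest level above background was -4.502 on LDIR replicate C, whose background was raised, and -5.915 to -5.488 on the others. The adjusted p in limma was at least 0.972 for every probe. Tnc had the largest bound of those named. It encodes tenascin-C, a matrix glycoprotein of embryonic tissue, wounds and tumour stroma. Its levels were -3.25, -4.28 and -3.43 after LDIR, all above background, and -7.53, -7.43 and -5.49 after sham, none above background. Tnc was thus at least 3.69-fold higher after LDIR, with unadjusted p = 0.00114 in limma for the fitted change. The call held with each array left out, with a change of 2.96 without LDIR replicate A, but the change was 0.54 under normexp and not past the thresholds. The 2 Tnc probes are shown because they read different stretches of the gene on the minus strand of chromosome 4 (mm9), the first across chr4:63674248-63675011, a span of 764 bases, and the second at chr4:63643728-63643787.
Tnc, first probe: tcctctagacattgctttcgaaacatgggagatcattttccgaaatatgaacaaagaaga
Tnc, second probe: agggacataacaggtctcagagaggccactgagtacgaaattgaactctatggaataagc
The second probe had levels of -4.58, -5.67 and -6.39 after LDIR and -7.47, -7.39 and -5.87 after sham. It was above background on 1 array, its groups overlapped, and its change of 1.36 ± 0.6 did not pass.

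Of the coding RNA probes above background in 1 group alone, 7 were higher and 15 were lower past the thresholds. From these, 4 each way are named by bound, and those named beside Tnc had smaller bounds. Galnt10, an enzyme that starts O-linked glycosylation, was at least 2.67-fold higher, Dmrt3, a transcription factor of the DM-domain family, at least 2.07-fold, and the unnamed probe A_55_P2105558 at least 2.05-fold. Vipr2, a receptor for vasoactive intestinal peptide, was at least 2.21-fold lower, with levels of -7.42, -6.31 and -5.54 after LDIR and -4.77, -3.81 and -4.1 after sham. The LDIR arrays were all below the sham arrays, but the other Vipr2 probes were above background nowhere. Gm8104, Ttc25 and LOC100503888 were at least 1.9-fold, 1.82-fold and 1.46-fold lower, and of these Ttc25 and LOC100503888 passed with each array left out. A brighter Ttc25 probe, above background on every array, had a change of -0.5, and -0.16 without LDIR replicate A, and did not pass. A second Gm8104 probe had a change of -0.01. Galnt10 and Dmrt3 did not pass without LDIR replicate C, the array with the raised background. Their changes went from 2.17 to 1.24 and from 1.12 to 0.74 without it. LDIR replicate C was the highest array for both, and so raised their bounds. It also raised that of A_55_P2105558, with a level of -3.45 against -5.21 and -5.1 on LDIR replicates A and B. Galnt10 and Gm8104 did not pass without LDIR replicate A, and a second Galnt10 probe had a change of 0.18. None of the 8 coding RNAs named by bound passed under normexp, whose offset of 50 shrinks the changes of dim probes such as these.

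Of 6219 lncRNA probes measured on all 6 arrays, 11 were higher and 8 lower past the thresholds. Groups did not overlap for 358, of which 9 were higher and 8 lower past the thresholds. From these the 5 with the largest change each way are named. Sequences are given because lncRNAs of this array are known only by locus. They are those of the 2 lower ones named that also passed without LDIR replicate A. A further 2 are of lncRNAs above background in 1 group alone that passed with each array left out. The F or R at the end of a name gives the strand, and coordinates are in mm9.
chr3:146629425-146649125_F, probe at chr3:146646898-146646957: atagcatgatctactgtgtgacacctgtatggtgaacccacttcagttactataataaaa
chr5:120253747-120281800_R, probe at chr5:120280943-120281002: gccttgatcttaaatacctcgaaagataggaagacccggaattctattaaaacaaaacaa
chr19:4994325-4994537_R, probe at chr19:4994327-4994386: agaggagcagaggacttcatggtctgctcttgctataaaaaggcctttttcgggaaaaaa
chr2:132079092-132086642_F, probe at chr2:132086419-132086478: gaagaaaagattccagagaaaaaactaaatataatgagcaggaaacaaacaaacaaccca
The lncRNA chr5:120253747-120281800_R had levels of -3.38, -2.84 and -2.08 after LDIR and -1.89, -1.47 and -1.66 after sham. All LDIR arrays were below all sham arrays, with a log2 change of -1.1 ± 0.37, or -0.79 and still past the thresholds without LDIR replicate A. The 2 other probes of the locus, on the same strand and above background on 5 arrays and on none, had changes of -0.07 and 0.26. The lncRNA chr3:146629425-146649125_F had levels of -4.49, -3.7 and -3.86 against -3, -3.42 and -3.09, a change of -0.85 ± 0.3, and -0.61 without LDIR replicate A. Here the other probes of the strand had changes of -0.82, -0.68 and -0.46, the first past the thresholds. The nearest coding probe, of the tubulin-modifying enzyme Ttll7, lay 4187 bases away and had a change of -0.05 ± 0.28.

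On chromosome 11 neighbouring loci on the minus strand were both lower. The lncRNA chr11:120041124-120052299_R stood at -0.2, 0.42 and 0.66 after LDIR and 1.23, 1.1 and 0.98 after sham, a change of -0.81 ± 0.3. The lncRNA chr11:120079199-120130099_R stood at -3.78, -3.06 and -2.79 against -2.35, -2.47 and -2.37, a change of -0.81 ± 0.32. Within the span of the latter lies the probe of LOC100503888, at chr11:120091222-120091281 on the same strand, with levels of -6.51, -6.77 and -6.4 after LDIR and -4.55, -4.99 and -4.93 after sham. LOC100503888 had the lowest p of all RNAs named here (0.000267, unadjusted). Neither lncRNA passed without LDIR replicate A, with changes of -0.56 and -0.52, and their other probes on the strand had changes of -0.68 to 0.04 and of -0.64 to -0.01. The last of the lower set, chr5:22890322-22939119_R, had a change of -0.78 ± 0.29 and -0.59 without that array, and its other probes had changes of -0.6 and -0.58.

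Of the 5 higher lncRNAs named 1 passed without LDIR replicate A. The lncRNA chr9:27148989-27155714_R stood at -4.29, -2.91 and -3.8 after LDIR and -4.45, -4.81 and -4.6 after sham, a change of 0.96 ± 0.38 that was 1.27 and past the thresholds without LDIR replicate A. This was the 1 array of 6 that could be left out with the call kept, and the change was 1.02 and not past the thresholds without LDIR replicate C, and 0.31 under normexp. Its 4 other probes on the strand were above background on no array. For chr17:3198868-3394643_F the change was 0.95 ± 0.35, against -0.2 to 0.19 for the 9 other probes of that strand. The lncRNAs chr11:97505439-97522274_R, chr5:124667541-124700029_R and chrX:98673447-98673874_F had changes of 0.92 ± 0.36, 0.91 ± 0.37 and 0.82 ± 0.33. These 3 and chr17:3198868-3394643_F did not pass without LDIR replicate A, nor the last of the 3 without LDIR replicate C. Of the 10 lncRNAs named so far, 3 passed without LDIR replicate A.

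Of the lncRNA probes above background in 1 group alone, 1 was higher and 11 were lower past the thresholds. The 4 named here are the higher one and 3 of the lower ones, chosen by bound. On LDIR replicate C 39.4% of lncRNA probes were above background, against 51% to 57.7% on the other arrays. The part of this array in the excess of lower probes was not tested. The lncRNA chr19:4994325-4994537_R, 9912 bases from a probe of the neuronal transcription factor Npas4, had levels of -4.85, -4.95 and -3.79 after LDIR and -6.02, -6.99 and -6.17 after sham. It was at least 2.13-fold higher by the mean of the LDIR arrays, which LDIR replicate C raised. The 2 other probes of the strand had changes of 1.19 and -0.24. The lncRNA chr2:132079092-132086642_F, 11365 bases from a probe of the replication clamp gene Pcna, had levels of -8.01, -6.62 and -6.6 after LDIR and -4.94, -3.15 and -4.8 after sham. It was at least 2.1-fold lower. The other probe of its strand, above background on all 6 arrays, had a change of -0.54, and -0.12 without LDIR replicate A, and did not pass. The named probes of both loci passed with each array left out, and neither passed under normexp. The lncRNAs chrX:146827709-146913398_R and chr17:48072598-48073137_R were at least 1.96-fold and 1.72-fold lower, the first not past the thresholds without LDIR replicate C. Other probes of their strands had changes of -0.32 to 0.28 (8 probes) and of -0.41 and 0.32. All 14 named lncRNAs had a coding probe with a RefSeq symbol within 100 kb, and none of those nearest genes passed the thresholds. LOC100503888, which has no such match, did pass and lies nearer to its lncRNA than the RefSeq gene taken. Over the whole array 615 loci had a probe above background on all 6 arrays on each strand, and 11 of them had a probe past the thresholds on 1 strand and none on both.

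No gene of the DNA damage lists passed the thresholds at 4 weeks. Gene lists are read below by the brightest probe of each gene, against all 22296 genes with 1 probe each. Of these genes 1.54% passed the thresholds (2.6% without LDIR replicate A), and their median log2 change was -0.02. None of 24 p53 target genes passed, and their median change was 0.02. Phlda3, a p53-induced inhibitor of AKT and the brightest of the list, stood at 4.39, 6.52 and 6.48 after LDIR and 6.24, 6.76 and 6.23 after sham. The groups overlapped, with LDIR replicate A lowest. Beside the brightest member of each list, other genes without a call are given for their known roles, chosen with their values known. Cdkn1a, the cell cycle inhibitor p21, had levels of 0.16, 0.84 and 0.53 after LDIR and 1.2, 2.05 and -0.36 after sham. Mdm2, which turns p53 over, stood at 2.94, 2.91 and 2.98 against 2.86, 3.02 and 2.68. Neither gene separated the groups. None of 19 genes of double-strand break sensing and end joining passed, with a median of 0.11 and changes between -0.26 and 0.51. Prkdc, the kinase DNA-PKcs of end joining, had a change of 0.27 ± 0.33, and Atm, the kinase that senses breaks, of 0.32 ± 0.42. Both stood highest on LDIR replicate A, and without it their changes were -0.02 and -0.13. Rnf8, a ubiquitin ligase at breaks, spanned 2.25 to 2.37 over all 6 arrays. None of 13 homologous recombination genes passed (median 0.09), and their brightest, Rad51c, had a change of 0.07 ± 0.24.

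Cell cycle genes had a median change of 0.61, and none of 29 passed by its brightest probe. A dimmer probe of the mitotic kinase Cdk1 did pass (1.72 ± 0.49), also without LDIR replicate A (1.39). It was above background on 2 LDIR arrays and no sham array. Another Cdk1 probe, above background on every array, had a change of -0.07. LDIR replicate A was the highest array for 24 of the 29, beside its lymphocyte genes, and the median without it was 0.16. Mki67, a marker of cycling cells, stood at 1.07 on LDIR replicate A and at -1.55 to -0.72 on the others. Rrm2, the inducible subunit of ribonucleotide reductase, had a change of 1.46 ± 0.64 with unadjusted p = 0.0575 in limma, and 0.76 without LDIR replicate A. Mcm7, a subunit of the replicative helicase and the brightest of the list, had a change of -0.03 ± 0.27. The part of lymphocyte content in these values was not tested.

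Lymphocyte, MHC class II and interferon-stimulated genes stood highest on LDIR replicate A, while chemokine and macrophage genes did not. The median changes of T lymphocyte, B lymphocyte and MHC class II genes were 2.09, 1.35 and 0.81 with it and 0.09, 0.08 and -0.08 without it. Interferon-stimulated genes had medians of 0.31 and -0.1. Chemokine genes had medians of 0.03 and -0.03, and LDIR replicate A was highest for 13 and lowest for 14 of the 34. The summed level of macrophage genes was 7.74 on LDIR replicate A and 7.26 to 7.83 on the others. Cd74, the MHC class II invariant chain, stood at 7.64 on LDIR replicate A and at 4.52, 4.43, 4.45, 4.84 and 4.91 on the others. The T helper coreceptor Cd4 stood at 3.91 on LDIR replicate A and at 3.56, 3.76, 3.48, 3.56 and 3.79 on the others. Of these 4 lists 1 gene passed, Pax5, the transcription factor of B cell identity, at -1.75, -5.54 and -5.34 after LDIR and -7.33, -6.42 and -6.2 after sham. It was above background on 2 LDIR arrays and no sham array, so Pax5 was at least 2.67-fold higher by the mean of the LDIR arrays. LDIR replicate A raised that mean. The other LDIR levels lay near the dimmest levels above background on the sham arrays, -5.77 to -5.49. The fitted change, taken against background, was 2.44 with LDIR replicate A and 1.21 and past the thresholds without it, and Pax5 did not pass under normexp. A second Pax5 probe, above background on 1 array, had a change of 1.37 ± 0.94, and 0.22 without LDIR replicate A, and did not pass. Among 30 cytokine genes Il1rn alone passed, and among 34 chemokine genes Cxcl2 and Cxcl14, both lower. Il1rn encodes the interleukin-1 receptor antagonist. Its levels were -5.02, -6.51 and -3.92 after LDIR and -7.51, -7.42 and -7.56 after sham. With 2 LDIR arrays and no sham array above background, Il1rn was at least 1.39-fold higher by the mean of the LDIR arrays. LDIR replicate C raised that mean, and LDIR replicate B lay below the dimmest levels above background on the sham arrays. Il1rn passed without LDIR replicate A and not under normexp. Cxcl2, a neutrophil chemokine, was above background on 1 of the 6 arrays, so no fold is given. Without LDIR replicate A, Cxcl5 (-0.98) and Cxcl10, an interferon-induced chemokine (-1.17), were lower past the thresholds, Cxcl10 with levels of -2.93 and -2.21 after LDIR and of -1.16, -1.48 and -1.57 after sham, and of 0.26 on LDIR replicate A.

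Matrix and stromal lists had negative medians that were higher without LDIR replicate A, where the median over all genes was 0.03. Collagen genes had a median change of -0.31, and 0.11 without that array, and none of 27 passed. The brightest, Col3a1 of fibrillar collagen, stood at 5.91, 7.24 and 7.18 after LDIR and 6.64, 6.83 and 7.18 after sham. The 32 matricellular and elastic matrix genes had a median of -0.38, and -0.06 without LDIR replicate A. Of these Tnc passed upward and Tnr downward. Tnr encodes tenascin-R, known from the nervous system, and stood at -5.78, -5.18 and -6.56 after LDIR and -4.28, -4.17 and -4.6 after sham. Its change of -1.49 ± 0.39 held without LDIR replicate A (-1.52) and was -0.27 and not past the thresholds under normexp. Tnr was above background on 1 LDIR array and all sham arrays. Timp1, an inhibitor of matrix metalloproteinases, passed when that array was left out (1.61) and not with all 6, with levels of 1.29 and 1.32 after LDIR against -0.54, 0.42 and -0.81 after sham, and of -0.62 on LDIR replicate A. None of 25 genes of the TGF-beta pathway passed (median -0.31, and -0.13 without LDIR replicate A), and Ltbp4, which binds latent TGF-beta, had a change of -0.55 ± 0.32.

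Epithelial and fat lists held no gene past the thresholds by its brightest probe. The luminal list of 18 genes had a median change of -0.18 and the basal list of 10 genes -0.15, and without LDIR replicate A these were 0.1 and -0.02. Milk protein genes had a median of -2.21, with sham replicate A the highest, but 4 of the 9 were above background on all 6 arrays and the median was -1.04 under normexp. A dimmer probe of Btn1a1 in this list passed (-1.35 ± 0.49), above background on 2 sham arrays alone. It did not pass without LDIR replicate A. Csn2, beta-casein, had a level of 3.5 on sham replicate A and of -7.65 to -3.06 on the other 5 arrays. Krt18, a keratin of luminal cells, spanned 3.83 on sham replicate B to 6.23 on sham replicate C, with all LDIR arrays between. White adipocyte, fatty acid synthesis and brown fat genes had medians of -0.53, -0.59 and -0.68, and of 0.06, 0.02 and -0.05 without LDIR replicate A. Cidea, a lipid droplet protein of brown fat, stood at 2.6 on LDIR replicate A and at 5.78, 5.67, 5.79, 5.55 and 5.97 on the others, while Cfd, the adipokine adipsin, had a change of -0.07 ± 0.28. All 28 respiratory chain genes were lowest on that array (median -0.32, and 0.06 without it). Of 16 skeletal muscle genes Mylpf passed, above background on 1 array, and of 27 immediate early genes Egr4 passed, above background on none. The remaining lists, of endothelial, macrophage, mast cell, erythrocyte, epidermal, nerve, hormone-response, EGF, antioxidant, heat shock, clock, glucocorticoid and well-known lncRNA genes, had no member past the thresholds with all 6 arrays. Without LDIR replicate A the NRF2 target Hmox1 (0.8) and the clock gene Npas2 (-1.26) passed. NEAT1, the scaffold RNA of paraspeckles, had a change of -0.09 ± 0.25.

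**Figure D4:**
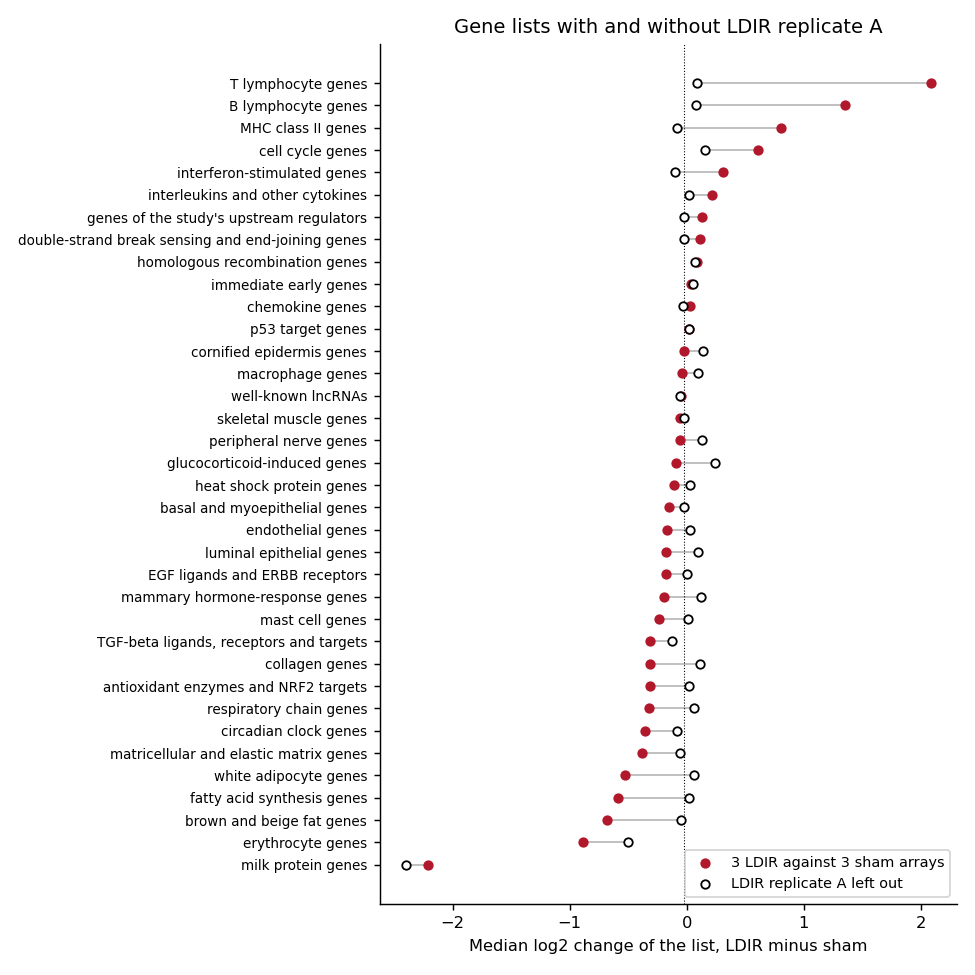
Median log2 change, LDIR minus sham, of each of 36 gene lists with all 6 arrays (filled) and without LDIR replicate A (open). The dotted line is the median over 22296 genes. The T lymphocyte median moves from 2.09 to 0.09 and the white adipocyte median from -0.53 to 0.06, while the milk protein median is -2.21 and -2.4.

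The study placed a set of genes under upstream regulators it predicted for SPRET/EiJ. That set was chosen on these samples, so its counts are not independent evidence. Of 21 genes on the array 6 were higher past the thresholds and 4 lower, and 5 and 4 without LDIR replicate A. The higher genes were Tnc, Il1rn, Bdkrb2, Egr4, Maz and Mybl1. Maz, a zinc finger transcription factor, was the single one above background on all 6 arrays, at -2.67, -3.36 and -2.85 after LDIR and -4.01, -3.96 and -3.67 after sham. Its change was 0.92 ± 0.28, and 0.77 without LDIR replicate A, but 0.41 and not past the thresholds under normexp. Bdkrb2, the bradykinin B2 receptor, and the transcription factor Mybl1 were above background on 2 LDIR arrays and no sham array, and were at least 1.47-fold and 1.16-fold higher. Bdkrb2 passed without LDIR replicate A and Mybl1 did not. Egr4 was above background on no array, so its call rests on background signal and no fold is given. The lower genes were Dcx, Grin2d, Gfra1 and Gpr63, known from neurons. None of the 4 was above background on any LDIR array. Gpr63 was above background on 2 sham arrays and at least 1.2-fold lower, Grin2d and Gfra1 were above it on 1 sham array each, and no probe of Dcx was above it anywhere. Grin2d and Gfra1 did not pass without LDIR replicate C. By their brightest probe, 10 genes were measured on all 6 arrays and not past the thresholds, with changes from -0.37 (Dmd, Gnal) to 1.22 (Cdk1). Crem, a cAMP-responsive transcription factor, had a change of -0.24 ± 0.25, Irf1 of interferon signalling 0.19 ± 0.41 and the mitotic kinase Cdk1 1.22 ± 0.66. The others were Cited2, Nab2, Akap13, Cdh8 and Nkain2. For 8 of the 10 another probe passed. That of Akap13 was measured on all 6 arrays (0.68 ± 0.28), those of Nab2 (0.71 ± 0.29) and Gnal (-0.59 ± 0.23) on 2 LDIR and all sham arrays, those of Cdk1 and Crem on 2 and 1 LDIR arrays alone, and those of Irf1, Cdh8 and Dmd on none.

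Promoters of these genes were searched for 3 motifs on both strands in RefSeq promoter windows of 300 bases (build GRCm38.p6), and 18 of the 21 genes had 1 or more windows. The cAMP response element TGACGTCA was in 1.79% of all 32851 promoters and the EGR element GCGTGGGCG in 0.612%, and neither was in any promoter of the set. The core TGACG, which also lies within the full element, was in 2 of 27 promoters of the set (Cdh8 and Egr4), or 7.41%, against 20.8% of all. A missing match says only that these letters are not in this window.

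The same exposure in BALB/c at 4 weeks gave no probe whose LDIR change differed between the strains after adjustment (0.0% of 55681 called by the interaction term in limma, smallest adjusted p = 0.377, with 1967 probes at an unadjusted p under 0.05). In BALB/c 3.37% of probes were higher and 1.42% lower past the same unadjusted thresholds, 4.78% in all. Of the 51 RNAs named above as past the thresholds in SPRET/EiJ, 27 had the same sign in BALB/c, 2 passed there in the same direction and 2 in the opposite one. Dmrt3 and Bdkrb2 were higher in both strains, Dmrt3 with a BALB/c change of 1.12 ± 0.45. The lncRNA chr5:120253747-120281800_R and Grin2d were lower in SPRET/EiJ and higher in BALB/c, where the lncRNA had a change of 0.7 ± 0.26. Bdkrb2 and Grin2d were above background on no BALB/c sham array, so no size is given for them. Tnc was above background on 1 LDIR and 2 sham arrays of BALB/c, and since it was below background on all SPRET/EiJ sham arrays no size is given for the difference between the strains (adjusted p = 0.957 in limma). Il1rn and Egr4 were above background on no BALB/c array of this time.

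**Figure D5:**
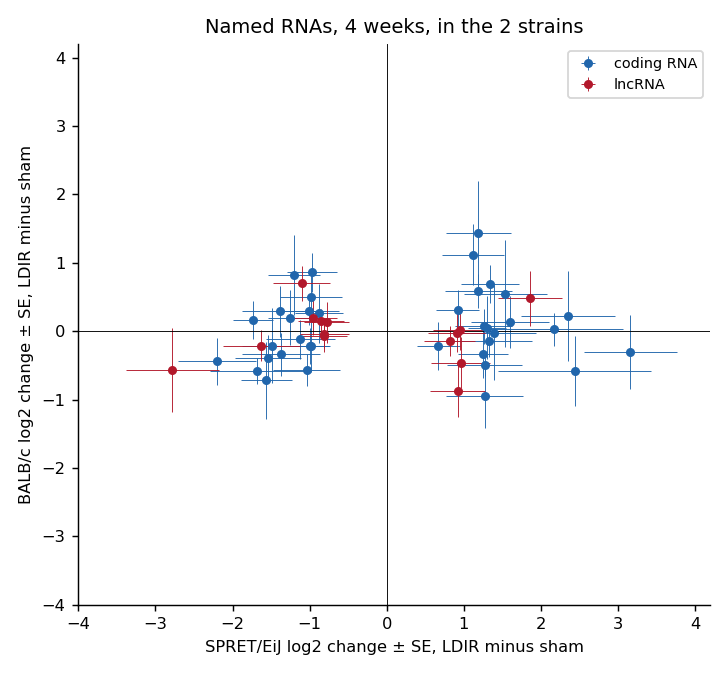
Log2 change, LDIR minus sham, at 4 weeks in SPRET/EiJ (horizontal) and BALB/c (vertical) for the 51 named RNAs past the thresholds in SPRET/EiJ, with SE bars from limma. The gap around 0 on the horizontal axis comes from the choice of RNAs, and most BALB/c changes lie within 1 log2 unit of 0.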

How the data were processed

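Total RNA of mammary gland was labelled with Cy3 and hybridized to Agilent 8x60K arrays. The authors deposited scanner tables from Feature Extraction 10.10.1.1 (build mm9), whose processed signal is a background-subtracted intensity, and a table of log2 values scaled to the 75th percentile. Mean signal and local background intensity, as deposited, served the normexp alternative. After each probe was centred, 99.3% of the deposited log2 values lay within 0.05 of those computed here.

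Control spots and outlier spots (912 over 6 arrays) were left out, spots of a probe averaged on the log2 scale, and the log2 75th percentile of the array subtracted. A probe was well above background on an array where at least 0.5 of its remaining spots carried that flag. Groups were compared with lmFit and eBayes of limma 3.58.1 (R 4.3.3) on the 6 arrays, with Benjamini-Hochberg adjustment over 55681 probes, and strains by an interaction term on 12 arrays. The fit was tested on simulated data. The precision is limited by 3 arrays a group. The comparison, gene lists and rules were chosen with earlier results of these data known.

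Named were probes past the thresholds with groups not overlapping: by change, 8 coding and 5 lncRNA probes each way among those above background on all 6 arrays, then by bound 4 coding and 3 lncRNA each way among those above background in 1 group alone, and from each list the members past the thresholds or, without any, the brightest member. In the gene lists a gene was read from its probe with the highest mean level, and in the ranked sets from its highest-ranked probe, which need not be the brightest. Gene symbols are those of the array design, of which 22296 matched RefSeq. Alternatives were normexp (offset 50), quantile normalization, the deposited log2 values, outlier spots kept, probes above background on 3 or more arrays, the methods' t-test, the replicate letter or slide row as a block, all 24 arrays in 1 fit and each array left out.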

Additional observations from a re-analysis of the deposited data

How the results depend on the processing

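For LDIR against sham in SPRET/EiJ, no alternative gave an adjusted p under 0.05 for any probe except the slide row as a block, which called 8. LDIR replicates A and B lie in the first slide row and LDIR replicate C with the sham arrays in the second, so that fit sets LDIR replicate C alone against sham. It gave 3301 lncRNA and 4935 coding RNA probes past the thresholds, against 504 and 721. Normexp gave 5 and 133, detected probes only 103 and 312, and the methods' t-test 321 and 428. With single arrays left out the counts were 438 to 887 lncRNA and 620 to 1708 coding RNA probes, with 0 at an adjusted p under 0.05 each time. The highest counts came without LDIR replicate B (887 and 1708), and those without LDIR replicate A were 843 and 1257. Without sham replicate B, 365 coding RNA probes were higher and 364 lower.

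Alternatives chosen after seeing the data left out an LDIR array together with another setting. Normexp without LDIR replicate C gave 57 lncRNA and 619 coding RNA probes, normexp without LDIR replicate A 18 lncRNA and 125 coding RNA probes, and detected probes only without LDIR replicate A 128 and 334. Normexp without LDIR replicate C turned the sign of Galnt10 (-0.02), Dmrt3 (-0.09), A_55_P2105558 (-0.06), chr19:4994325-4994537_R (-0.02), Mybl1 (-0.05) and Egr4 (-0.04). Normexp without LDIR replicate A turned Ttc25 (0.01), chr17:48072598-48073137_R (0.12), Dcx (0.06), Grin2d (0.07), Gpr63 (0.01) and Cxcl2 (0.09). The cause was not tested. Of 39 named RNAs not past the thresholds, 27 changed sign under some setting.

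The interaction called 0 to 3 probes with single arrays left out. The 3, without LDIR replicate A, were chr14:106068373-106146613_R, Olfr484 and ENSMUST00000056086, each above background on at most 1 SPRET/EiJ array. Same-lettered LDIR and sham arrays deviated together with correlations of 0.0805, 0.0803 and -0.131. With 3 arrays a group these values show no pairing by letter but cannot exclude one. The replicate block gave 509 lncRNA and 836 coding RNA probes, none at an adjusted p under 0.05, and 0 probes for the interaction.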
